A study of Mus musculus with 19 samples.

Results

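The genes described here are 10 of the Notch pathway, taken by gene name from a count table of 54532 genes. They are the receptors Notch1, Notch2, Notch3 and Notch4, the ligands Jag1, Jag2 and Dll4, and the target genes Hes1, Hey1 and Heyl. All 10 were found, had at least 11 counts in every kidney (the lowest, for Hey1) and passed the filter on low counts in every comparison. The kidneys came from male mice aged 8 to 9 weeks with a C57BL/6J background, 12 days after unilateral ureteral obstruction (UUO), in which the left ureter is tied off and cut so that the retained urine injures the kidney and fibrosis follows. Every mouse in all 4 groups had been operated on, and no unobstructed kidney was compared here.

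There were 19 kidneys, which the labels call biological replicates. WT mice were given PBS (5 kidneys) or rCD5L (5 kidneys), and CD5L KO mice, which lack the circulating macrophage protein CD5L, were given PBS (4 kidneys) or rCD5L (5 kidneys). The recombinant protein, rCD5L, was injected into the peritoneum every day at 0.5 mg per mouse, and PBS was injected in the same volume. Bulk RNA-seq read the RNA of the whole organ, so the values are averages over tubules, vessels, glomeruli, interstitium and infiltrating cells, and fewer cells of a type and less RNA per cell cannot be told apart. The design asks what loss of CD5L and supply of rCD5L change in an obstructed kidney, and for the Notch genes it allows 4 comparisons of paired groups and the interaction of genotype and rCD5L.

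In the deposited annotation of the mouse genome GRCm38, the receptors are Notch1 (ENSMUSG00000026923, chr2:26457903-26516663, minus strand), Notch2 (ENSMUSG00000027878, chr3:98013527-98150361, plus), Notch3 (ENSMUSG00000038146, chr17:32120820-32166880, minus) and Notch4 (ENSMUSG00000015468, chr17:34564268-34588503, plus). The ligands are Jag1 (ENSMUSG00000027276, chr2:137081456-137116644, minus), Jag2 (ENSMUSG00000002799, chr12:112907819-112929776, minus) and Dll4 (ENSMUSG00000027314, chr2:119325784-119335962, plus). The targets are Hes1 (ENSMUSG00000022528, chr16:30064384-30067796, plus), Hey1 (ENSMUSG00000040289, chr3:8663359-8667256, minus) and Heyl (ENSMUSG00000032744, chr4:123233556-123249875, plus).

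Notch signalling works between cells in contact. A Jagged or Delta-like ligand on a cell binds a Notch receptor on its neighbour, the receptor is cut by an ADAM protease and then by gamma-secretase, and the freed intracellular part joins RBPJ in the nucleus and switches on repressors of the Hes and Hey families. In vessels, Dll4 and Notch4 are known from endothelium and Notch3 from smooth muscle cells and pericytes, and in injured kidney Jag1 and Notch receptors of tubular epithelium have been linked to fibrosis.

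Of the 10 genes, 7 matched the promoter sequences of RefSeq for the build GRCm38.p6, and Hes1, Hey1 and Heyl did not. The stretches before the gene are shown for Dll4, Notch4 and Notch3, since these had the smallest adjusted p-values of the members between the genotypes given PBS. Each is written 5′ to 3′ on the strand of its gene and ends where the gene begins, or a few bases before it for Notch3. Capitals mark matches on either strand to GGGCGG (GC box) or TTCCTG (core of ETS factor sites). Dll4 lies on the plus strand (chr2:119325534-119325783), Notch4 on the plus strand (chr17:34564045-34564267) and Notch3 on the minus strand (chr17:32166897-32167140).
Dll4: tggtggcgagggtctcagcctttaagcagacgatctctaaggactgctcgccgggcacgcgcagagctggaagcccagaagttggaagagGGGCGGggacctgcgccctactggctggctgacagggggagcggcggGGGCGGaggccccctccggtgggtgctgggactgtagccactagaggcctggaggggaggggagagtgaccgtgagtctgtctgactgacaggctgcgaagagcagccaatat
Notch4: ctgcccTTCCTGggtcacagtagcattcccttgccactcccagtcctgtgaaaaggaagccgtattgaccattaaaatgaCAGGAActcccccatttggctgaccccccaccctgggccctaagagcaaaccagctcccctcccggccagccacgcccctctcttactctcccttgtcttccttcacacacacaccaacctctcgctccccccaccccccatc
Notch3: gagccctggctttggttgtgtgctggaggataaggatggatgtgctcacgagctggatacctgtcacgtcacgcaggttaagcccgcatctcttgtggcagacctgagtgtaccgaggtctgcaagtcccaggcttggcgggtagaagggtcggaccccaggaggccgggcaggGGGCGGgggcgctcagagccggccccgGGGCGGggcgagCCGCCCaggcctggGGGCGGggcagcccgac

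These 3 stretches have a G and C content of 65.6% (Dll4), 59.2% (Notch4) and 68.9% (Notch3), where the median of 32851 promoters over 250 bases before the start is 52.4%. The stretches shown are 250 bases long for Dll4, 223 for Notch4 and 244 for Notch3, so 2 of them are shorter than 250 bases. The GC box was found in the stretch before the gene for 5 of the 7 matched members (Notch1, Notch2, Notch3, Jag2 and Dll4) and in 32.7% of all promoters. The ETS core was found for 2 members (Notch1 and Notch4) and in 25.7% of all promoters. TGGGAA, the core bound by RBPJ, was found for 0 of the 7 and in 21.6% of all promoters, and CACGTG, an E-box, for 0 of the 7 and in 6.02%. None of the 4 motifs overlaps another in the sequences shown. A match to these letters describes the sequence and is not evidence of binding.

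Libraries held between 17917491 and 23847090 counts. Cd5l had 0 counts in each of the 9 CD5L KO kidneys, which allows up to 3 counts in a kidney, and 3 to 15 counts in WT kidneys. Markers of tubule, podocyte, endothelium, smooth muscle and pericyte, fibroblast and macrophage were all above 0 in every kidney. Kidney 4 of the CD5L KO mice given rCD5L stood apart on the first principal component of all genes (134, against -23.9 to 28.0 in the other 18), and kidney 3 of the same group stood apart on the second (-81.9, against -14.7 to 21.8). The 6 proximal tubule markers of kidney 4 summed to 11205 CPM (counts scaled to a common library size with TMM factors), against 1122 to 2437 CPM in the other 18 kidneys, and its 5 fibroblast markers to 892 CPM against 1960 to 4559 CPM. Fold changes that rest on the CD5L KO mice given rCD5L are therefore also given without kidneys 3 and 4, a choice made after seeing the principal components.

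Per length of transcript, Hes1 had the highest level of the members and Hey1 the lowest. In FPKM (fragments scaled by gene length and library size), Hes1 had a mean of 16.6 ± 2.02 (SD, n = 19 kidneys), and its lowest kidney, at 12.6 FPKM, lay above the highest value of any other member. Jag1 followed at 7.90 ± 1.39 FPKM. Notch2 (6.04 ± 0.95), Heyl (5.93 ± 1.36), Dll4 (5.88 ± 1.35) and Notch3 (5.01 ± 1.22) came next. Their ranges over the 19 kidneys, pooled over the groups, overlapped each other and that of Jag1. Within groups, Jag1 lay above Notch2 without overlap in CD5L KO kidneys given PBS (6.80 to 7.64 against 4.59 to 5.82 FPKM). The same held in WT kidneys given rCD5L (8.49 to 9.99 against 6.64 to 7.67 FPKM). Notch4 had 3.58 ± 0.73 FPKM, Notch1 2.58 ± 0.52, Jag2 1.80 ± 0.35 and Hey1 0.706 ± 0.26, again with overlapping ranges between neighbours. Among 18454 genes that passed the filter over all kidneys, Hes1 stood at the 84.2 percentile of mean FPKM, Jag1 at the 68.6, Notch2 at the 62.1 and Hey1 at the 22.2.

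The order within a group changed little. In WT kidneys given PBS, Dll4 was the member with the third highest level (7.45 ± 0.80 FPKM, n = 5), and it overlapped Jag1 above it (8.20 ± 0.91) and Heyl below it (6.26 ± 0.36). In the other 3 groups Dll4 ranked the fifth, at 6.19 ± 0.75 FPKM in WT kidneys given rCD5L (n = 5), 4.91 ± 0.81 in CD5L KO kidneys given PBS (n = 4) and 4.76 ± 0.91 in CD5L KO kidneys given rCD5L (n = 5). Hes1 ranked the first and Hey1 the last in each of the 4 groups, without overlap with the neighbour in rank.

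**Figure D1:**
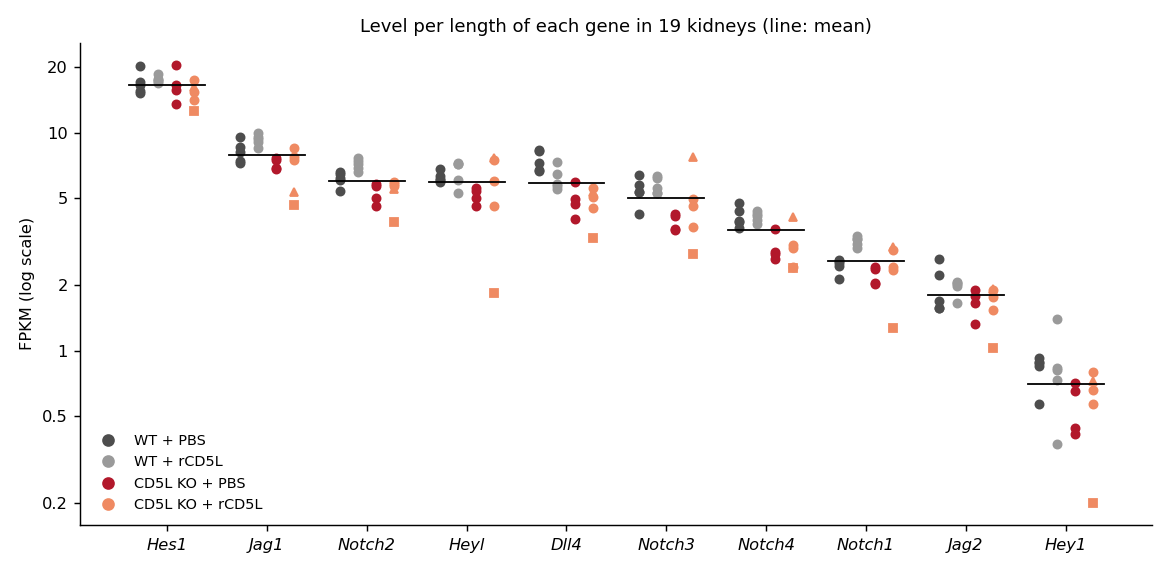
FPKM of each Notch pathway gene (x axis, ordered by mean) in each kidney on a log scale, with colours for the 4 groups, a line for the mean of all 19 kidneys, and a square and a triangle for kidneys 4 and 3 of the CD5L KO mice given rCD5L. Hes1 lies above every other gene, at 12.6 to 20.6 FPKM, and the genes between Jag1 and Notch3 overlap.

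With PBS, the receptors Notch3 and Notch4, the ligand Dll4 and the target Heyl fell in CD5L KO relative to WT kidneys. Dll4 fell to 0.664 times the WT level, Notch4 and Notch3 each to 0.726 times and Heyl to 0.832 times. The other 6 members did not pass the test. With edgeR's quasi-likelihood test and Benjamini-Hochberg adjustment over all genes, 4 of 10 members were lower and 0 higher at an adjusted p under 0.05, where 10.5% of the 17579 genes tested were called, 5.4% lower and 5.13% higher. The log2 fold change was below 0 for all 10 members, with a median of -0.24, and for 50.7% of all genes, with a median of -0.00. In 2 members, Dll4 and Heyl, every CD5L KO kidney lay under every WT kidney, as did 6.84% of all genes.

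Among the receptors, Notch3, which is best known from arterial smooth muscle and pericytes, had 35.8, 42.4, 41.2 and 35.9 CPM in the 4 CD5L KO kidneys given PBS and 41.4, 57.2, 52.8, 62.7 and 52.6 CPM in the 5 WT kidneys given PBS. The WT kidney with 41.4 CPM lay within the range of the CD5L KO kidneys, and the other 4 WT kidneys lay above all of them. The log2 fold change was -0.46 ± 0.10 (SE; adjusted p = 0.0167, edgeR). Notch4, a receptor found mainly in endothelium, had 26.2, 28.3, 36.3 and 27.7 CPM in CD5L KO kidneys and 38.6, 47.2, 38.5, 42.8 and 36.0 CPM in WT kidneys. The groups overlapped through a CD5L KO kidney at 36.3 CPM and a WT kidney at 36.0 CPM. Its log2 fold change was -0.46 ± 0.10 (adjusted p = 0.0163, edgeR). Notch1, which acts in both endothelium and epithelium, had 35.5 to 42.4 CPM in CD5L KO and 36.8 to 45.7 CPM in WT kidneys, and Notch2, the receptor needed for proximal nephron development, had 61.3 to 77.5 and 71.4 to 87.6 CPM. Both overlapped between the groups, with log2 fold changes of -0.14 ± 0.08 for Notch1 (adjusted p = 0.278, edgeR) and -0.21 ± 0.08 for Notch2 (adjusted p = 0.123).

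Of the ligands, Dll4, which drives Notch signalling between endothelial cells, had 19.1, 23.7, 28.5 and 22.3 CPM in CD5L KO kidneys and 33.9, 39.6, 31.9, 38.5 and 31.5 CPM in WT kidneys. The highest CD5L KO kidney lay under the lowest WT kidney. Dll4 had a log2 fold change of -0.59 ± 0.11 (adjusted p = 0.00864, edgeR), the largest of the members in this comparison. Jag1, the ligand of tubular epithelium, vessel wall and many other cells, had 49.0 to 55.2 CPM in CD5L KO and 51.7 to 67.5 CPM in WT kidneys, with a log2 fold change of -0.17 ± 0.08 (adjusted p = 0.196, edgeR). Jag2, its close relative, had 11.4 to 16.3 and 13.4 to 22.5 CPM, with a log2 fold change of -0.20 ± 0.16 (adjusted p = 0.468, edgeR). Both Jagged genes overlapped between the groups.

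Of the target genes, Heyl, a repressor of the Hey family found in vascular smooth muscle, had 34.1, 35.6, 29.1 and 31.8 CPM in CD5L KO kidneys and 36.8, 39.7, 37.96, 38.1 and 43.0 CPM in WT kidneys. The groups did not overlap, but the gap between the highest CD5L KO and the lowest WT kidney was small. The log2 fold change was -0.26 ± 0.07 (adjusted p = 0.0366, edgeR). Hey1, another repressor of that family, had only 34 to 66 counts in a CD5L KO kidney and 49 to 88 in a WT kidney. At this depth its log2 fold change of -0.55 had an SE of 0.22 and an adjusted p of 0.132 (edgeR), and the groups overlapped at 1.67 to 2.87 CPM in CD5L KO against 2.27 to 3.71 CPM in WT kidneys. Hes1, a target in many cell types that also answers to other signals, had 34.3 to 51.9 CPM in CD5L KO and 37.6 to 50.3 CPM in WT kidneys. It came to a log2 fold change of -0.01 ± 0.11, with a 95% interval from -0.26 to 0.23 (adjusted p = 0.958, edgeR).

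**Figure D2:**
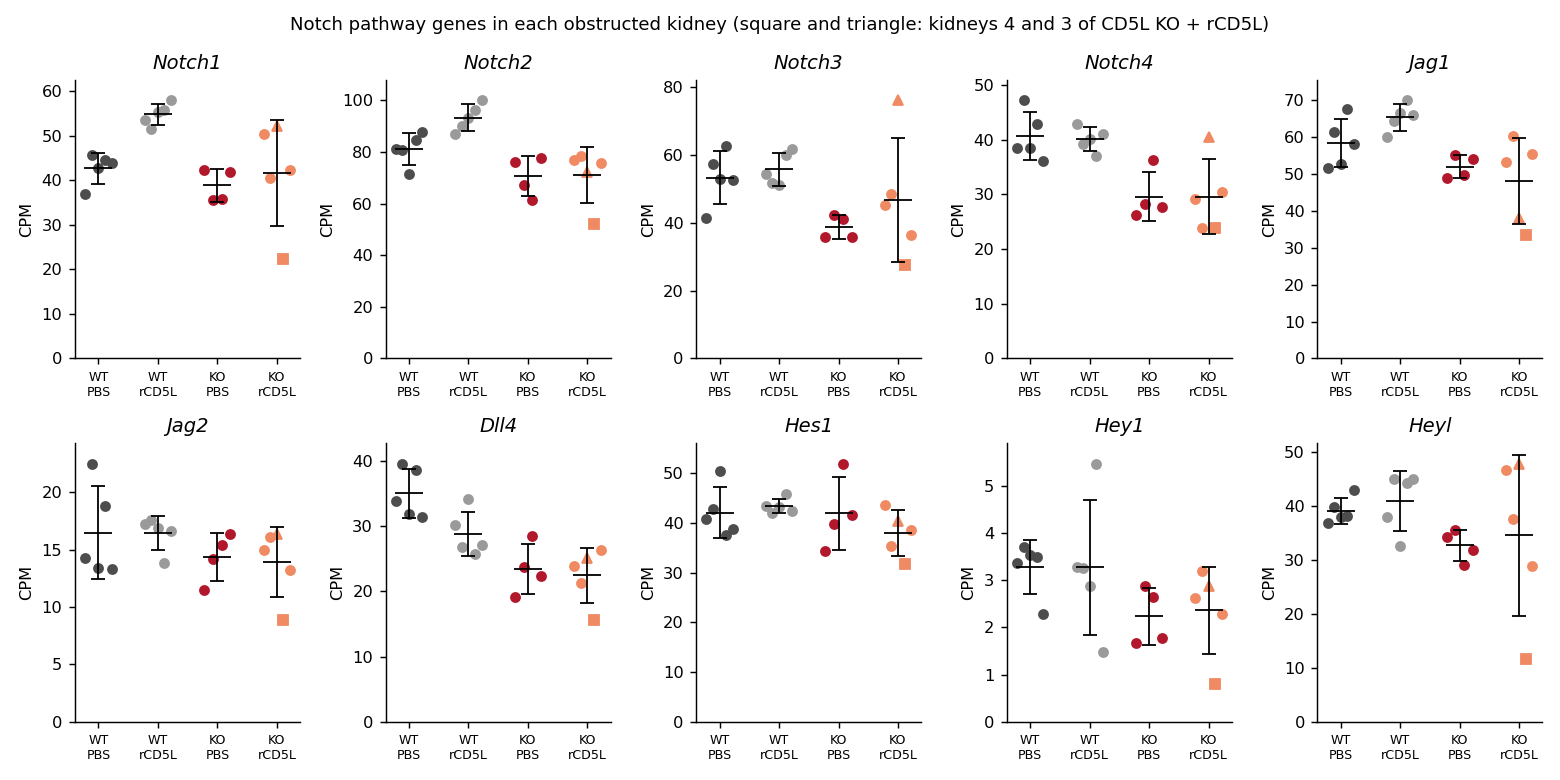
CPM of each of the 10 genes in each kidney (1 point per kidney, 1 panel per gene, y axis from 0), by group, with the mean and SD in black. Dll4 and Heyl do not overlap between the genotypes given PBS, Notch1 is higher in every WT kidney given rCD5L than in any given PBS, and kidney 4 of the CD5L KO mice given rCD5L (square) is the lowest of all 19 kidneys in 10 of 10 panels.

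How far these calls rest on single kidneys and on the spread used differed between the genes. Dll4 had an adjusted p from 0.00741 to 0.0246 when each of the 9 kidneys was left out in turn. Without CD5L KO kidney 1, Notch3 and Notch4 came to adjusted p-values of 0.0525 and 0.0514, and without CD5L KO kidney 4, Notch3 came to 0.0529. Heyl lost its call without CD5L KO kidney 1, 3 or 4 (adjusted p = 0.0598, 0.0951 and 0.0974) and without WT kidney 2, 4 or 5 (0.0769, 0.0661 and 0.0783). It also lost its call with no filter on low counts (0.0531) and with a replicate block. In a fit of all 19 kidneys together, 0 of the 10 members and 12 of 18454 genes were called, with adjusted p-values of 0.0882 for Dll4, 0.177 for Notch4, 0.364 for Notch3 and 0.776 for Heyl (all edgeR). The log2 fold changes of these 4 genes in that fit were -0.58, -0.45, -0.46 and -0.26, in the same order.

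Cell type markers moved in the same comparison. Of 8 endothelial markers, 4 were lower in CD5L KO kidneys given PBS (Pecam1, Cdh5, Flt1 and Tie1), 0 were higher, and their sum was 595 to 670 CPM against 708 to 816 CPM in WT kidneys, with no overlap. Of 8 markers of smooth muscle and pericyte, 3 were lower (Acta2, Pdgfrb and Cspg4), 0 were higher, and the sum was 711 to 1018 against 914 to 1357 CPM. Of 5 fibroblast markers, 3 were lower (Col1a1, Col3a1 and Pdgfra), with a sum of 2050 to 2767 against 2928 to 4559 CPM, and of 5 macrophage markers, 1 was lower (Csf1r). Of 5 markers of thick limb and collecting duct, 1 was higher (Atp6v1g3), and of the markers of proximal tubule, podocyte, lymphocyte, urothelium and epididymis, 0 were called by edgeR. No marker of the endothelial, smooth muscle and pericyte, fibroblast and macrophage lists was at 0 in any kidney. The part of these markers in the fall of the Notch genes was not tested.

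The log2 ratio of each member to the summed markers was also taken kidney by kidney in the mice given PBS, as a description of 4 against 5 kidneys. For the genes that fell, the ratio of Dll4 to the endothelial sum was -4.73 ± 0.24 (SD) in CD5L KO and -4.45 ± 0.07 in WT kidneys, and that of Notch4 was -4.39 ± 0.24 and -4.24 ± 0.07. The ratio of Notch3 to the smooth muscle and pericyte sum was -4.41 ± 0.21 and -4.41 ± 0.25, and that of Heyl was -4.66 ± 0.12 and -4.85 ± 0.24. For 5 of the 6 members that were not called, all but Hey1, the ratio to the smooth muscle and pericyte sum lay further apart between the genotypes than the fold change of the gene itself. Hes1 to the smooth muscle and pericyte sum was -4.31 ± 0.40 in CD5L KO and -4.75 ± 0.36 in WT kidneys, Notch1 -4.41 ± 0.29 and -4.72 ± 0.23, Notch2 -3.55 ± 0.26 and -3.80 ± 0.17, Jag1 -3.99 ± 0.17 and -4.28 ± 0.15, and Jag2 -5.86 ± 0.34 and -6.13 ± 0.24, each higher in CD5L KO kidneys. Against the endothelial sum this held for 2 of the 6, Hes1 (-3.89 ± 0.27 and -4.19 ± 0.20) and Notch1 (-3.99 ± 0.20 and -4.16 ± 0.11), and the ratio lay closer together than the fold change for Notch2, Jag1, Jag2 and Hey1.

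**Figure D3:**
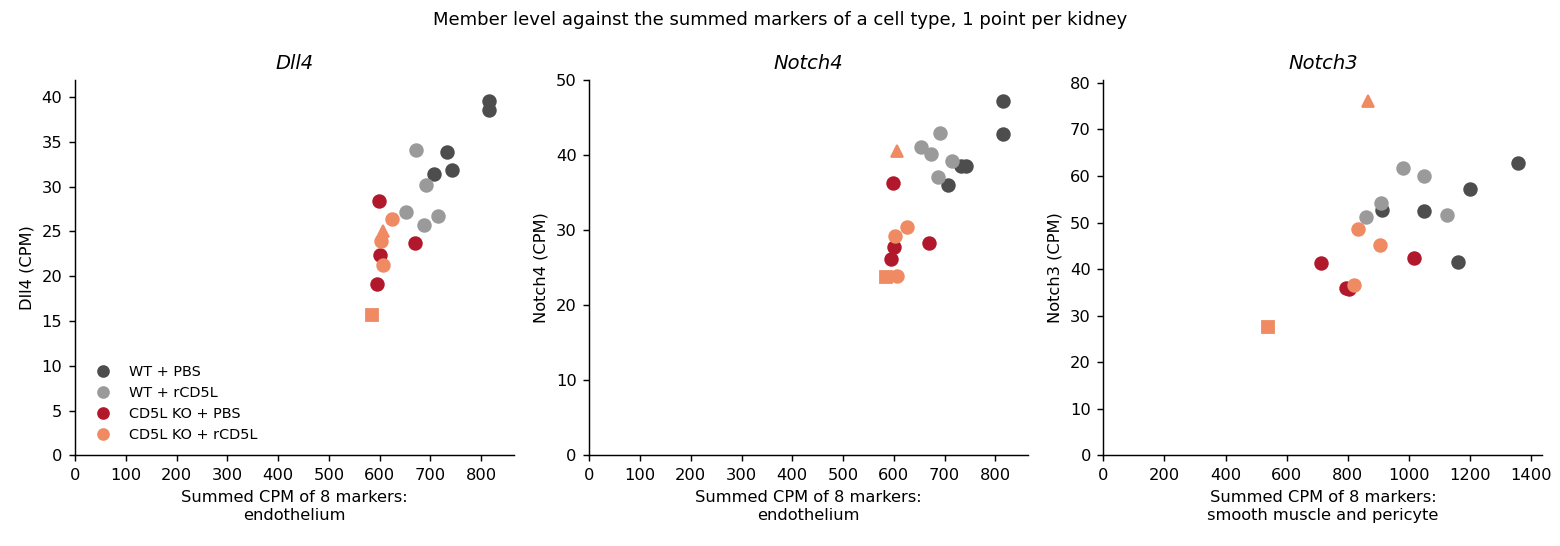
CPM of Dll4, Notch4 and Notch3 (y axes) against the summed CPM of 8 markers of endothelium or of smooth muscle and pericyte (x axes), 1 point per kidney, colours for the 4 groups, with a square and a triangle for kidneys 4 and 3 of the CD5L KO mice given rCD5L. CD5L KO kidneys given PBS lie at 595 to 670 CPM of endothelial markers, and WT kidneys given PBS lie to their right at 708 to 816 CPM and higher in Dll4.

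Transcript length also moved with this comparison. Over the 17579 genes, longer genes had lower log2 fold changes (Spearman's rho was -0.28, taken over genes that are no independent replicates), and 8 of the 10 members are longer than the median gene of 3808 bases, from Dll4 with 3852 to Notch1 with 14232 bases. With an offset for gene length in the fit, Dll4, Notch4 and Notch3 kept their calls with adjusted p-values of 0.0129, 0.0459 and 0.0384 and log2 fold changes of -0.58, -0.39 and -0.39, and Heyl did not (-0.23, adjusted p = 0.0660). Several members overlap other genes in the annotation, among them Notch3 with Gm17276 and Dll4 with Gm14207 on the opposite strand. These neighbours had 2 to 21 and 14 to 59 counts per kidney, against 377 to 1613 for Notch3 and 214 to 940 for Dll4. The strand setting of the counting is not given in the sources used here, so reads of each pair could belong to the other. How many cannot be told from these counts.

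The other genes of the pathway were counted by role from a list of 48, of which 46 passed the filter. In CD5L KO relative to WT kidneys, with PBS, 3 of the 46 were lower and 1 was higher, a share no larger than the 10.5% of all genes called. The genes that fell were Tle1, a Groucho corepressor that works with Hes proteins (log2 fold change -0.41 ± 0.07, adjusted p = 0.00607, edgeR), Ep300, a histone acetyltransferase and coactivator of the Notch complex (-0.32 ± 0.08, adjusted p = 0.0258), and Numb, which antagonises Notch receptors (-0.23 ± 0.06, adjusted p = 0.0289). The gene that rose was Aph1b, a subunit of gamma-secretase (0.47 ± 0.07, adjusted p = 0.00530, edgeR). By role, 0 of 3 other ligands, 0 of 9 modifiers of ligands and receptors, 1 of 9 proteases, 1 of 9 antagonists, 2 of 12 nuclear factors and 0 of 4 other targets were called. For 33 of the 46, the log2 fold change was below 0, with a median of -0.09, where 50.7% of all genes were below 0.

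Between CD5L KO and WT kidneys given rCD5L, which share no kidney with the comparison above, all 10 members had a log2 fold change below 0, as did 51.1% of all genes, and none passed the adjusted test. The members' median was -0.38, where that of all 17360 genes was -0.01. The edgeR test called 0 genes in all and DESeq2 called 150, of which 0 were members. At an unadjusted p under 0.05, 5 members were lower (Notch1, Notch2, Notch4, Jag1 and Dll4) and 0 were higher, where 6.8% of all genes were lower and 11% higher. In 1 member, Notch2, the groups did not overlap, as in 3.09% of all genes in that direction.

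Notch2 had 76.8, 78.4, 72.3, 52.1 and 75.7 CPM in CD5L KO kidneys given rCD5L and 86.9, 90.1, 93.2, 96.4 and 99.98 CPM in WT kidneys given rCD5L. Every CD5L KO kidney lay under every WT kidney, and kidney 4 lay far under the others. The log2 fold change was -0.40 ± 0.11 (adjusted p = 0.259, edgeR). Notch4 had 29.2, 23.9, 40.6, 23.8 and 30.5 CPM against 42.9, 39.2, 40.1, 37.1 and 41.1 CPM, with overlap only through kidney 3 at 40.6 CPM and a log2 fold change of -0.44 ± 0.14 (adjusted p = 0.259). Notch1 had 50.4, 40.5, 52.2, 22.3 and 42.4 CPM against 53.6, 51.4, 55.3, 55.7 and 58.0 CPM, at -0.41 ± 0.18 (adjusted p = 0.272). Here too kidney 4 was by far the lowest, and kidney 3 lay above the lowest WT kidney. Notch3 ran from 27.6 to 76.1 CPM in CD5L KO kidneys, the latter in kidney 3, and from 51.1 to 61.7 CPM in WT kidneys, at a log2 fold change of -0.26 ± 0.21 (adjusted p = 0.507, edgeR).

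The ligand Jag1 had 53.3, 60.4, 38.03, 33.5 and 55.5 CPM in CD5L KO and 60.1, 64.5, 66.6, 70.0 and 66.1 CPM in WT kidneys given rCD5L. Only the CD5L KO kidney at 60.4 CPM reached the WT range. Its log2 fold change was -0.45 ± 0.15 (adjusted p = 0.259, edgeR). Dll4 had 23.9, 21.2, 25.1, 15.7 and 26.4 CPM against 30.2, 26.7, 34.1, 25.7 and 27.2 CPM, at -0.36 ± 0.14 (adjusted p = 0.259), and Jag2 8.87 to 16.3 against 13.9 to 17.6 CPM, at -0.25 ± 0.16 (adjusted p = 0.407). Both overlapped between the groups. The targets Hes1 (-0.20 ± 0.10, adjusted p = 0.299), Hey1 (-0.46 ± 0.37, adjusted p = 0.504) and Heyl (-0.25 ± 0.29, adjusted p = 0.647) overlapped as well.

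Without kidneys 3 and 4 of the CD5L KO mice given rCD5L, 3 members were lower in CD5L KO kidneys at an adjusted p under 0.05, and 644 of 18012 genes were called. These were Notch4 (log2 fold change -0.54 ± 0.08, adjusted p = 0.0125, edgeR), Notch2 (-0.29 ± 0.06, adjusted p = 0.0303) and Notch1 (-0.31 ± 0.08, adjusted p = 0.0448). Notch3 came to -0.37 ± 0.10 (adjusted p = 0.0519) and Dll4 to -0.28 ± 0.11 (adjusted p = 0.144). Jag1 was at -0.22 ± 0.07 (adjusted p = 0.0820), Jag2 at -0.16 ± 0.11 (0.407), Hes1 at -0.16 ± 0.07 (0.241), Hey1 at -0.28 ± 0.32 (0.680) and Heyl at -0.12 ± 0.14 (0.656, edgeR), so that all 10 members were still below 0, with a median of -0.28. Leaving out any 1 of the 10 kidneys left 0 members called. With all 19 kidneys in 1 fit, Notch2 and Jag1 were called, and 1291 genes in all. Longer genes had lower log2 fold changes here too (Spearman's rho = -0.28 across genes). With the offset for gene length, 0 members were called, as without it, and the log2 fold change was -0.16 ± 0.19 for Notch1, -0.22 ± 0.10 for Notch2, -0.30 ± 0.16 for Notch4, -0.37 ± 0.13 for Jag1 and -0.34 ± 0.13 for Dll4. With kidneys 3 and 4 kept, the endothelial sum was 584 to 625.1 CPM in CD5L KO kidneys given rCD5L. It was 653 to 715 CPM in WT kidneys given rCD5L, without overlap. The smooth muscle and pericyte sum was 538 to 906 against 860 to 1126 CPM. The proximal tubule sum was 1360 to 11205 against 1130 to 1579 CPM, with kidney 4 the highest. No marker of any list passed the adjusted test. At an unadjusted p under 0.05, 5 of 6 proximal tubule markers were higher. Lower were 3 of 8 endothelial, 2 of 8 smooth muscle and pericyte, 2 of 5 fibroblast and 3 of 4 podocyte markers. The part of these markers in the values of the members was not tested. Of the other pathway genes, 0 of 46 were called by edgeR, and Ep300 had the smallest p (log2 fold change -0.35 ± 0.10, adjusted p = 0.259). At an unadjusted p under 0.05, 5 of the 46 were lower and 1 was higher, where 6.8% of all genes were lower and 11% higher.

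**Figure D4:**
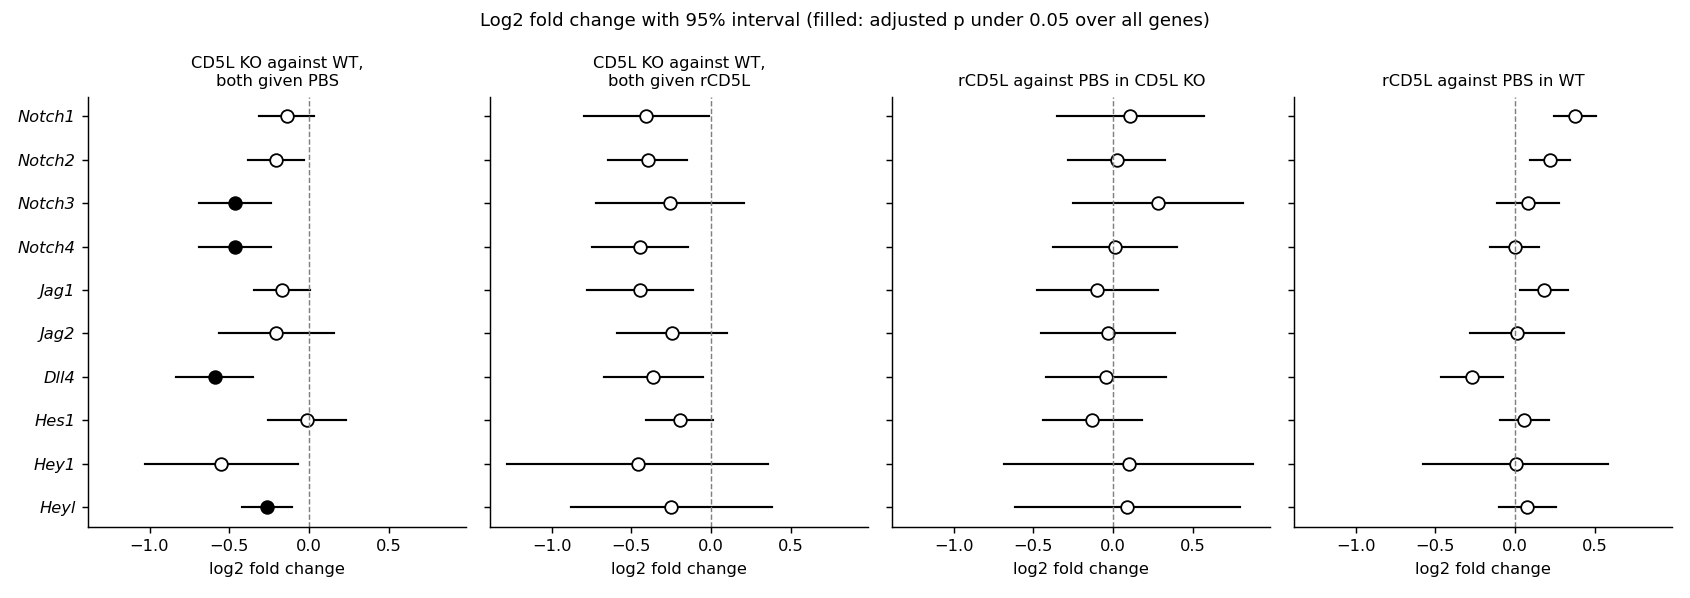
Log2 fold change (x axis) of each gene with its 95% interval from the edgeR fit, in 4 comparisons. Filled points have an adjusted p under 0.05 over all genes. All 10 genes lie below 0 in both comparisons of CD5L KO with WT, 4 of them filled with PBS, and the intervals of rCD5L in CD5L KO mice are wide and cross 0 for every gene.

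In WT mice, rCD5L went with higher values of Notch1 that did not pass the adjusted test, and no member was called by edgeR. This comparison shares the WT kidneys given PBS, and the WT kidneys given rCD5L, with the comparisons of the genotypes. Of 17455 genes, 0 were called. DESeq2 called 542 genes, among them Notch1 and Notch2. At an unadjusted p under 0.05, 3 members were higher (Notch1, Notch2 and Jag1) and 1 was lower (Dll4), where 8.31% of all genes were higher and 7.71% lower. In 1 member, Notch1, the groups did not overlap, as in 1.47% of all genes in that direction.

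Notch1 had 53.6, 51.4, 55.3, 55.7 and 58.0 CPM in WT kidneys given rCD5L and 36.8, 45.7, 42.7, 44.6 and 43.9 CPM in WT kidneys given PBS. The lowest kidney given rCD5L lay above the highest given PBS. The log2 fold change was 0.37 ± 0.06, with a 95% interval from 0.24 to 0.50 (unadjusted p = 2.37e-05, adjusted p = 0.0952, edgeR). The adjusted p lay between 0.000222 and 0.9998 over 19 alternatives, of which DESeq2, no filter on low counts and leaving out WT kidney 1 given PBS (adjusted p = 0.0320) brought it under 0.05. Notch2 was at 0.22 ± 0.06 (adjusted p = 0.121), Jag1 at 0.18 ± 0.07 (adjusted p = 0.232) and Dll4 at -0.27 ± 0.09 (adjusted p = 0.173, edgeR). Dll4 had 30.2, 26.7, 34.1, 25.7 and 27.2 CPM with rCD5L against 33.9, 39.6, 31.9, 38.5 and 31.5 CPM with PBS, so that 1 kidney given rCD5L, at 34.1 CPM, lay within the range of those given PBS. Among the remaining 6 members, log2 fold changes lay between -0.00 for Notch4 and 0.08 for Notch3, with adjusted p-values of 0.701 and above.

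Longer genes had higher log2 fold changes with rCD5L in WT mice (Spearman's rho = 0.24 across genes), and Notch1 and Notch2 are the longest members, with 14232 and 10782 bases. With the offset for gene length, Notch1 was at 0.30 ± 0.06 (adjusted p = 0.125, edgeR) and Notch2 at 0.16 ± 0.05 (adjusted p = 0.225). The endothelial sum was 653 to 715 CPM in WT kidneys given rCD5L and 708 to 816 CPM in those given PBS, and 4 of the 8 endothelial markers were lower at an unadjusted p under 0.05, though 0 markers of any list passed the adjusted test. At the same unadjusted threshold, 2 of 8 markers of smooth muscle and pericyte (Acta2 and Rgs5) and 2 of 6 of proximal tubule (Slc34a1 and Slc22a6) were lower. Higher were 1 of 5 fibroblast markers (Pdgfra), 1 of 4 podocyte markers (Synpo), 1 of 5 lymphocyte markers (Cd4) and 2 of 3 epididymis markers tested (Lcn5 and Crisp1), the epididymis sum being 13.3 to 31.0 CPM with rCD5L and 9.43 to 20.6 CPM with PBS. The part of these markers in the values of Notch1, Notch2, Jag1 and Dll4 was not tested. Of the 46 other pathway genes, 0 were called by edgeR and 12 were higher and 1 lower at an unadjusted p under 0.05, where 8.31% of all genes were higher and 7.71% lower. By role, the 12 were 6 of 12 nuclear factors, 4 of 9 modifiers of ligands and receptors and 2 of 9 proteases, with no test of these shares.

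In CD5L KO mice, no difference of the members between rCD5L and PBS was detectable. This comparison shares the CD5L KO kidneys given PBS with the comparison of genotypes given PBS. It shares the CD5L KO kidneys given rCD5L with the comparison of genotypes given rCD5L. By edgeR 0 of 17467 genes were called and by DESeq2 10, none of them members, and at an unadjusted p under 0.05 there were 0 members, where 2.87% of all genes had such a p. The log2 fold changes of the members ran from -0.13 ± 0.14 for Hes1 to 0.28 ± 0.24 for Notch3, with adjusted p-values of 0.897 and above. For the 4 genes that were lower in CD5L KO kidneys given PBS, the 95% intervals ran from -0.25 to 0.81 (Notch3), -0.38 to 0.40 (Notch4), -0.42 to 0.33 (Dll4) and -0.62 to 0.80 (Heyl). The point estimate of the difference between the genotypes given PBS, taken as a rise, lies inside the intervals of Notch3 and Heyl. It lies outside those of Notch4 and Dll4. That difference has a 95% interval of its own, from -0.69 to -0.24 for Notch3 and for Notch4, -0.83 to -0.35 for Dll4 and -0.42 to -0.11 for Heyl (edgeR). Both comparisons also share the CD5L KO kidneys given PBS, so these intervals do not decide whether rCD5L made up the difference.

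The spread in this comparison was wide. The common biological coefficient of variation was 28.8%, against 12.6% between the genotypes given PBS and 11.6% for rCD5L in WT mice. Heyl shows it most among the members, with 46.6, 37.6, 47.8, 11.7 and 28.9 CPM in CD5L KO kidneys given rCD5L and 34.1, 35.6, 29.1 and 31.8 CPM in those given PBS. Kidney 4 gave the lowest value of all 19 kidneys and kidneys 1 and 3 the highest. The summed markers of epididymis, a tissue that lies outside the kidney, were 19.3 to 49.5 CPM with rCD5L and 6.74 to 17.2 CPM with PBS. All 6 proximal tubule markers had a log2 fold change above 0 (median 1.23), and all 4 urothelium markers one below 0 (median -0.53). At an unadjusted p under 0.05, 2 of 3 epididymis markers tested were higher and 1 of 4 urothelium markers (Upk3a) was lower. No marker of any list passed the adjusted test. The part of these markers in the values of the members was not tested. Without kidneys 3 and 4, 0 members and 0 genes were called by edgeR and 0 members had an unadjusted p under 0.05, and the log2 fold changes ran from -0.09 ± 0.13 for Hes1 to 0.28 ± 0.26 for Hey1. The 95% intervals were then -0.07 to 0.40 for Notch3, -0.36 to 0.19 for Notch4, -0.25 to 0.32 for Dll4 and -0.10 to 0.52 for Heyl. The point estimate of the difference between the genotypes given PBS, taken as a rise, lay inside the interval of Heyl and outside those of the other 3. This again does not decide whether rCD5L made up the difference. For Notch3, kidney 3 had the highest value of all 19 kidneys (76.1 CPM). Of the other pathway genes, 0 of 46 were called by edgeR and 3 had an unadjusted p under 0.05, where 2.87% of all genes had one.

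The interaction, which asks whether rCD5L acted differently in the genotypes, called 0 of 18454 genes and 0 members by edgeR, and DESeq2 called 0 as well. No member had an unadjusted p under 0.05, where 6.25% of all genes had one. The difference in log2 fold change (CD5L KO minus WT) ran from -0.26 ± 0.18 for Jag1 (adjusted p = 0.739) to 0.24 ± 0.19 for Dll4 (adjusted p = 0.770, edgeR). For Notch1 it was -0.25 ± 0.21, with a 95% interval from -0.69 to 0.20, so that a difference between the genotypes in the response of Notch1 to rCD5L was not shown. Without kidneys 3 and 4 of the CD5L KO + rCD5L group, 0 members were called, Jag1 was at -0.05 ± 0.11, Notch1 at -0.17 ± 0.11 and Dll4 at 0.31 ± 0.16, the last with an adjusted p of 0.965 (edgeR). Of the other pathway genes, Aph1b had the smallest p (-0.39 ± 0.13, adjusted p = 0.731, edgeR), and 0 of 46 were called.

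Within the groups, correlations between members depended on the kidneys of the CD5L KO mice given rCD5L that stood apart. After the group means were taken from log2 CPM, 43 of the 45 pairs of members had a positive Pearson's r over 19 kidneys, with a median of 0.49. Without kidney 4, which was the lowest of all 19 in every member, the median was 0.20, and without kidneys 3 and 4 it was 0.17, with 33 of 45 pairs positive and a lowest r of -0.56. With 100000 permutations of the kidneys within groups, 0 pairs had an adjusted p under 0.05 over the 45 pairs for Pearson's r and 1 had for Spearman's rho.

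That pair was Notch4 and Dll4, a receptor and a ligand of endothelium. Pearson's r was 0.75 (permutation p = 0.00428, adjusted p = 0.0642) and Spearman's rho 0.82 (permutation p = 0.000180, adjusted p = 0.00810). Pearson's r was 0.72 without kidney 4 (adjusted p = 0.0513 by permutation), 0.76 without kidneys 3 and 4 (adjusted p = 0.0117 by permutation) and 0.77 without the 2 kidneys farthest from the median of Notch4. The highest Pearson's r of any pair, 0.90 for Notch1 and Heyl (permutation p = 0.0119, adjusted p = 0.134), fell to 0.68 without kidney 4 and to 0.52 without the 2 kidneys farthest from the median of Notch1. Spearman's rho of that pair was 0.50 (permutation p = 0.0461, adjusted p = 0.163), so its high r rests on those kidneys.

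**Figure D5:**
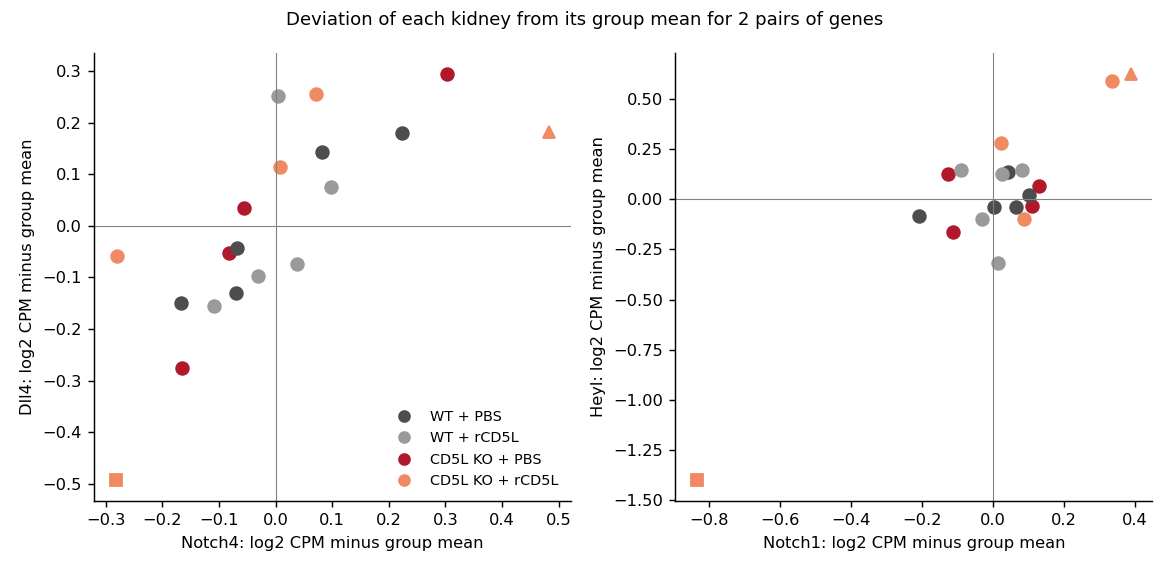
Deviation of each of the 19 kidneys from its group mean in log2 CPM, for Dll4 against Notch4 and for Heyl against Notch1, with colours for the groups and a square and a triangle for kidneys 4 and 3 of the CD5L KO + rCD5L group. The first pair is spread along a line through all 4 groups (r = 0.75), and in the second kidney 4 lies far from all other kidneys (r = 0.90 with it and 0.68 without it).

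Among 18444 other genes, the 3 whose deviations from the group means were most like those of each member over the 19 kidneys are given as a description. Depth, composition and kidneys 3 and 4 of the CD5L KO mice given rCD5L are shared by all of them. For Notch3 they were Dnmt1, Sh3gl1 and the endothelial receptor Tie1 (Pearson's r = 0.92 to 0.93), and r was 0.88 to 0.91 without kidney 4. Kidney 3, the highest of all 19 in Notch3 at 76.1 CPM, was kept in these values. Notch4 was most like Hspb8, Sema6b and Trp53i13 (0.90 to 0.91), and Dll4 was most like Gdpd2, Plk2 and Map3k6 (0.85 to 0.86). The values for Dll4 were 0.75 to 0.77 without kidney 4. Heyl was most like Tbc1d2b, Dtx4, itself a Deltex gene of the pathway, and Unc5b (0.96 to 0.97, and 0.88 to 0.90 without kidney 4). Hes1 was most like 2600006K01Rik and the immediate early genes Jun and Junb (0.81 to 0.83). For Notch1 they were Elmsan1, Samd14 and Itpr3, for Notch2 Btk, Cd44 and Iqsec3, for Jag1 Gm47694, Muc4 and Atp10b, for Jag2 Slc16a3, Etv4 and Ksr1, and for Hey1 Rln3, Bambi and Gm13807, with r between 0.83 and 0.96.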

How the data were processed

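RNA of 19 obstructed kidneys was sequenced as paired reads from libraries made with random hexamers. Per the labels, the authors used Trimmomatic, HISAT2 and featureCounts with the build GRCm38 (mm10), and DESeq2, and deposited read counts per gene and FPKM values. Versions and the settings for strand and multiply mapped reads are not given in the sources used here. Every column of values named a sample (0 did not). Members were taken by gene name.

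From the counts, edgeR 4.0.16 (R 4.3.3) was run with TMM factors, filterByExpr at a minimum count of 10 and quasi-likelihood tests, which are two-sided, with the 2 groups of a comparison in each fit and all 4 groups for the interaction. Benjamini-Hochberg adjustment ran over all genes tested, and a gene was called at an adjusted p under 0.05. SEs were taken from the F statistic, and 95% intervals from the t distribution of the fit. CPM and log2 CPM (prior count 2) used the TMM factors. The deposited FPKM values served to compare levels between genes and, as log2(FPKM + 1) or log2(FPKM + 0.1), as an alternative with limma 3.58.1. The other alternatives were DESeq2 1.42.0, RLE factors, other filters, all 19 kidneys in 1 fit, a replicate block, an offset for gene length (lowess, span 0.3) and leaving out each kidney. Correlations used Python 3.11.15, numpy 2.4.6 and scipy 1.17.1, with two-sided permutation p-values.

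All 10 members were described. The other pathway genes were counted by role and named where called, or else by the smallest p in a comparison (some of these are not reported here), and for each member the 3 genes with the highest Pearson's r were named. The members and the lists of genes were chosen with earlier results of these data known. The scripts were tested on simulated data. Libraries held 17917491 to 23847090 counts, and a count of 0 allows up to 3, for counting error only. The study's supplement describes each point in its RNA-seq plot of these groups as a single animal, and p-values measure only the spread between these animals. No 2 kidneys of a group agreed within sampling noise.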

Additional observations from a re-analysis of the deposited data

Results flagged for a closer look

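In 3 of 40 sets of kidneys (10 genes in 4 groups), the lowest kidney stood far from the others of its group, by Dixon's criterion at 95%. Chance gives about 1 such set in 20. Notch2 was at 52.1 CPM in kidney 4 of the CD5L KO mice given rCD5L, where the next kidney of the group had 72.3 CPM, and this is the kidney that stood apart on the first principal component of all genes. Jag2 was at 13.9 CPM in WT kidney 4 given rCD5L, where the next had 16.6 CPM. Hey1, the member with the fewest counts, was at 2.27 CPM in WT kidney 5 given PBS, where the next had 3.36 CPM.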

How the results depend on the processing

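Of 550 alternative values of 28 fold changes named above, 521 kept their direction and their side of the threshold, 16 lost a call, 9 gained one and 4 changed sign. The sign changes were those of Hes1, a gene that was not called in either comparison. In CD5L KO relative to WT kidneys with PBS, its log2 fold change ran from -0.127 to 0.0715 when single kidneys were left out (0.071 without CD5L KO kidney 1, 0.01 without CD5L KO kidney 2 and 0.06 without WT kidney 3), and for rCD5L in CD5L KO mice from -0.21 to 0.00032 (the latter without CD5L KO kidney 3 given PBS).

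For the genotypes given PBS, 4 members and 1850 genes were called. With all 19 kidneys in 1 fit, which shares the spread of all groups, these were 0 and 12. Leaving out single kidneys gave 1 to 4 members and 1015 to 2062 genes. Without CD5L KO kidney 1, Dll4 was the 1 member left and 1038 genes were called. Without CD5L KO kidney 4, Notch4 and Dll4 were called, and without CD5L KO kidney 2, WT kidney 2 or WT kidney 4 there were 1215, 1121 and 1015 genes. For rCD5L in CD5L KO mice, DESeq2 called 10 genes and 0 members. For rCD5L in WT mice, DESeq2 called 2 members and 542 genes, no filter on low counts gave 1 and 137, and leaving out single kidneys gave 0 to 1 members and 0 to 39 genes, with Notch1 and the 39 genes without WT kidney 1 given PBS. Between CD5L KO and WT kidneys given rCD5L, DESeq2 called 150 genes and 0 members, all 19 kidneys in 1 fit gave 2 members and 1291 genes, leaving out single kidneys gave 0 members and 0 to 1 genes (1 without CD5L KO kidney 2), and leaving out kidneys 3 and 4 of the CD5L KO mice gave 3 members and 644 genes. The interaction gave 0 members and 0 genes under every alternative run. Of the 45 pairs of members, Spearman's rho called 1, log2 CPM without the group means removed called 35, leaving out single kidneys called 0 to 3, and leaving out kidneys 3 and 4 called 1. Beyond fewer samples or a shared spread, the cause of these changes was not tested.

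The labels number the kidneys of each group, and the main fits did not pair kidneys by these numbers. The correlation of deviations from the group means between kidneys of the same number lay between -0.19 and 0.17. A kidney correlated best with its own number in 4 of 9, 2 of 9, 0 of 10 and 0 of 10 cases. With so few kidneys in a group, these values do not decide whether the numbers pair them. With a replicate block, 3 members (Notch3, Notch4 and Dll4) and 2132 genes were called for the genotypes given PBS, and 0 members and 0 genes in the other 4 comparisons. Depth limits Hey1 most, with 11 to 110 counts per kidney.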
